A study of Mus musculus with 36 samples.

Results

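The genes described here are 8 genes of endothelin and FGF2 signaling, taken by their symbols from a count table of 55487 genes. They are the ligand genes Edn1, Edn2 and Edn3, the converting enzyme gene Ece1, the receptor genes Ednra and Ednrb, the growth factor gene Fgf2 and its receptor gene Fgfr1. All 8 were found, and their values were taken from all 36 bulk RNA-seq libraries of the series. The libraries came from C57BL/6 mice of 2 to 4 months, with 12 each from the unmyelinated optic nerve (UON), the myelinated optic nerve (MON) and the retina. The 6 groups of each tissue were naïve mice without treatment of either eye, mice at 3 D and 2 W after unilateral ON crush, and mice whose anterior chamber was injected with microbeads (3 D, 2 W and 6 W earlier), which raises the intraocular pressure as a model of glaucoma. Each group was 4 mice, pooled by sex into 1 female and 1 male library (n = 2), and the same mice gave all 3 tissues. No group carried a transgene or an engineered allele. UON was a short piece just behind the globe and MON the first myelinated piece behind the transition zone, so both hold several cell types. The pools of a group differ in sex and in mice, which cannot be told apart.

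Endothelins are short vasoactive peptides that are cut from larger precursors, in a last step by Ece1, and that act on the G protein-coupled receptors encoded by Ednra and Ednrb. In the eye, Ednrb is known as a receptor of astrocytes, and Edn2 as a ligand that stressed photoreceptors make. FGF2 is a growth factor without a classical signal peptide that binds receptor tyrosine kinases such as FGFR1 together with heparan sulfate, and it is known as a survival factor of the injured retina.

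The 3 ligands share their active part, and since the results below turn on which of them was measured where, the coding sequence of the mature peptide is shown for each. It covers 21 codons (63 bases) on the plus strand of GRCm38, within exon 2 of each gene. Capitals in Edn2 and Edn3 mark bases that differ from Edn1.
Edn1 (chr13:42303649-42303711): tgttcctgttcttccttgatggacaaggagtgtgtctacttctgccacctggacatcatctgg
Edn2 (chr4:120161951-120162013): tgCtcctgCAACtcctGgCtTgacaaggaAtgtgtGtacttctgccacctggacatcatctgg
Edn3 (chr2:174761749-174761811): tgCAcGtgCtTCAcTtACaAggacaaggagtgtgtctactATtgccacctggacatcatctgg
The Edn2 sequence differed from that of Edn1 at 10 bases and 3 residues, and the Edn3 sequence at 13 bases and 6 residues. Edn2 and Edn3 differed from each other at 15 bases and 6 residues. The precursors differ more in length, with 202 residues for Edn1, 175 for Edn2 and 214 for Edn3.

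The libraries held 16.2 to 58.5 M (mega) estimated counts in UON, 16.3 to 78.1 M in MON and 19.9 to 56.0 M in retina. The naïve MON pools were unequal, with 78.1 M counts in the female and 17.8 M in the male pool. Markers of the labelled tissues were present. Summed FPKM (fragments scaled by transcript length and by library depth) of 10 photoreceptor genes lay between 19900 and 25900 in retina and between 2.97 and 101 in both nerve tissues, and that of 6 oligodendrocyte genes between 19900 and 57400 in MON and between 1180 and 17700 in UON. The highest UON sums, 17700 in the female glaucoma pool at 3 D and 14200 in the male one at 6 W, came near the lowest of MON. Some libraries stood apart by other markers. The oligodendrocyte sum was 1180 in the male UON pool at 2 W after crush, against 8180 to 11500 in naïve UON. Genes of surface epithelium and lens summed to 661 FPKM in the female MON pool of glaucoma at 6 W and 179 in the male one at 2 W, and to 44.2 in the female retina pool of glaucoma at 6 W, against at most 3.15 in the other retina libraries. In bulk tissue, fewer cells of a type and less RNA per cell cannot be told apart.

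The first comparison concerned the naïve tissues. Ednrb and Fgfr1 were by far the highest of the 8 genes in both nerve tissues, and both were lowest in retina, where Ece1 led. Edn2 was the reverse case, with counts in retina and none in either naïve nerve tissue. Levels are given as the deposited FPKM, which are scaled by length, so that genes can be set side by side.

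Ednrb, the receptor that binds all 3 endothelins alike (ENSMUSG00000022122, chr14:103814625-103844402, minus strand, GRCm38), stood at 588 FPKM in the female and 526 in the male pool of naïve UON (557 ± 44.0, SD, n = 2). In naïve MON it was 134 and 79.5 FPKM (107 ± 38.7), and in naïve retina 1.90 and 2.05 (1.98 ± 0.108). The 3 tissues did not overlap. By edgeR's quasi-likelihood test, Ednrb was higher in UON than in MON by 2.37 on the log2 scale (SE 0.33, adjusted p = 0.0063), higher in UON than in retina by 8.45 (adjusted p = 2.71e-05), and higher in MON than in retina by 6.07 (adjusted p = 5.8e-05). Ednra, the receptor of smooth muscle that prefers the peptides of Edn1 and Edn2 (ENSMUSG00000031616, chr8:77663031-77724464, minus strand), was far lower. It was at 2.38 and 2.22 FPKM in UON, 1.38 and 0.482 in MON, and between 0.136 and 0.588 in all 12 retina libraries. Ednra was called higher in UON than in retina (2.96 on the log2 scale, adjusted p = 0.0107), while MON against retina gave 1.67 with an adjusted p of 0.0953. DESeq2 called the latter (adjusted p = 0.0437). With 1 library left out, this difference ran from 0.63 to 2.56 by edgeR.

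Among the ligands, Edn1, the endothelin of the vessel wall (ENSMUSG00000021367, chr13:42301476-42307990, plus strand), was low throughout. Its naïve levels were 0.901 and 0.942 FPKM in UON, 0.912 and 0.678 in MON and 1.59 and 1.35 in retina, and no pair of tissues differed by the test (adjusted p from 0.663 to 0.931). Edn3, a ligand of Ednrb (ENSMUSG00000027524, chr2:174760619-174784042, plus strand), was at 3.39 and 3.58 FPKM in UON, 3.71 and 1.57 in MON and 0.396 and 0.270 in retina. It was higher than in retina by 3.82 on the log2 scale in UON (adjusted p = 0.00326) and by 3.04 in MON (adjusted p = 0.0096). The second of these calls was lost without the female naïve MON pool (1.89). In the naïve tissues, summed FPKM of fibroblast, sclera and meninges genes was 547 to 568 in UON, 89.6 to 141 in MON and 1.65 to 1.82 in retina. That of pericyte and smooth muscle genes was 281 to 365, 25.3 to 41.8 and 15.6 to 16.6. Sums of astrocyte and oligodendrocyte genes were also higher in nerve than in retina. The part of these cells in the levels of Edn3 and Ednra was not tested.

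Edn2 (ENSMUSG00000028635, chr4:120161206-120167360, plus strand) had 94 counts (1.28 FPKM) in the female and 10 counts (0.147 FPKM) in the male pool of naïve retina. All 4 naïve nerve libraries were at 0 counts. A read pair adds about 4 counts in these tables, so that a count of 0 allows up to 12 counts (3 read pairs), and the 10 counts of the male retina pool lie under that limit. For that reason no fold is given for Edn2 between tissues. The adjusted p was 0.0912 for UON and 0.109 for MON against retina by edgeR, and 0.0222 and 0.0349 by DESeq2, which called Edn2 lower in both nerve tissues. Over all 24 nerve libraries, injured ones included, Edn2 was at 0 in 22, which allows up to 0.154 to 0.743 CPM (counts scaled to library size) depending on the library. The exceptions were the female UON pool at 3 D after crush with 17 counts and the female MON pool of glaucoma at 6 W with 4 counts. Limits of this kind cover counting error only.

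Ece1, the protease that releases the active peptides (ENSMUSG00000057530, chr4:137862237-137965229, plus strand), was the most even of the 8 genes, with 6.97 and 8.83 FPKM in naïve UON, 7.96 and 5.60 in MON and 9.86 and 12.4 in retina. Its log2 differences between tissues lay between -0.02 and 0.19, with adjusted p from 0.653 to 0.967. Over all 36 libraries Ece1 ranged from 4.17 to 13.0 FPKM.

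Fgf2 (ENSMUSG00000037225, chr3:37348346-37410108, plus strand) was at 11.2 and 13.1 FPKM in naïve UON, 5.21 and 3.27 in MON and 0.357 and 0.603 in retina. Fgfr1, its receptor tyrosine kinase (ENSMUSG00000031565, chr8:25513654-25575718, plus strand), was at 150 and 142 FPKM in UON, 38.1 and 33.9 in MON and 4.28 and 3.22 in retina. Both genes fell in the order UON, MON, retina without overlap. Fgfr1 was higher in UON than in MON by 1.99 (SE 0.23, adjusted p = 0.00308), than in retina by 5.83 (adjusted p = 2.49e-05), and higher in MON than in retina by 3.84 (adjusted p = 5.59e-05). Fgf2 was higher in UON than in MON by 1.59 (SE 0.33, adjusted p = 0.0257), a call that was lost without the male naïve UON pool (adjusted p = 0.221), without the male naïve MON pool (1.08, adjusted p = 0.102) and in a fit of all 36 libraries. Against retina the log2 difference of Fgf2 was 8.43 in UON and 6.85 in MON (adjusted p = 2.98e-05 and 5.68e-05). These differences rest on only 17 counts in the female and 9 in the male pool of naïve retina. The 9 counts lie under the limit of 12 that a count of 0 allows, so the size of both differences is uncertain. The FPKM levels of Fgf2 lie closer together than these count-based differences, in the same direction.

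**Figure D1:**
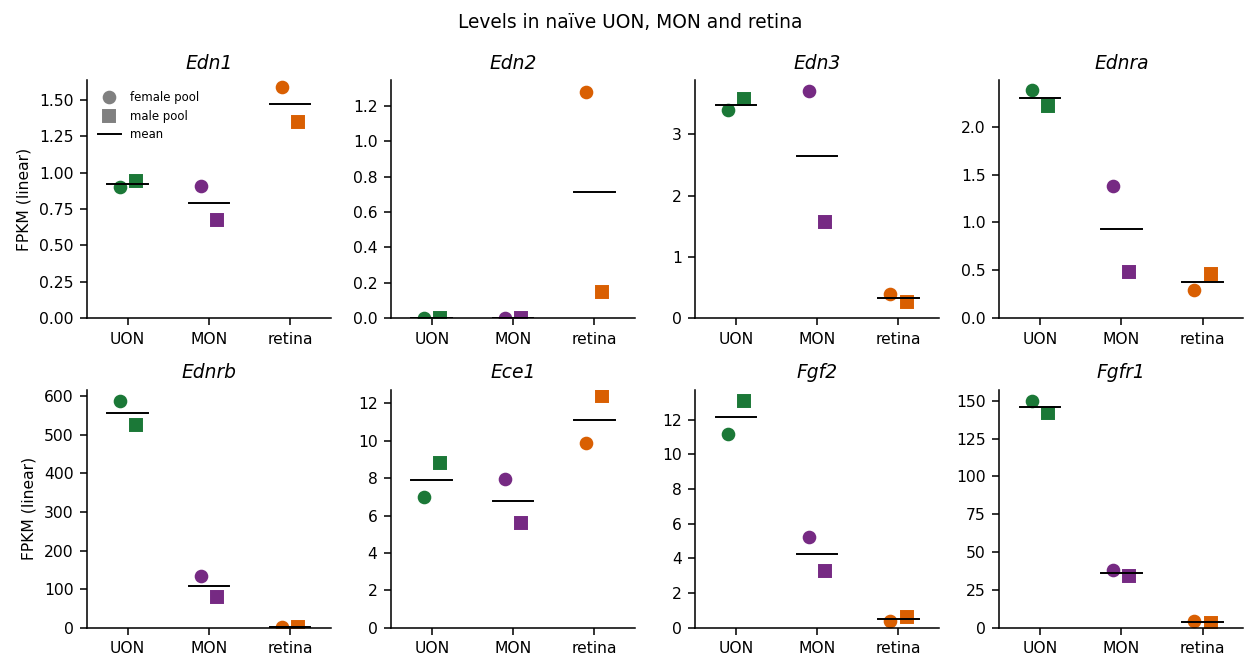
Levels of the 8 genes in naïve UON, MON and retina (FPKM, linear axes that start at 0 and differ between panels). Circles are female pools, squares male pools and lines the mean of both. Ednrb, Fgf2 and Fgfr1 fell from UON to MON to retina without overlap, Ece1 was at 5.60 to 12.4 FPKM in all 6 libraries, and Edn2 was at 0 in the 4 nerve libraries.

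A gene was called where its adjusted p was under 0.05 and its log2 difference exceeded 1 in size. By this rule 3 of the 8 genes were called between UON and MON, where 9.63% of all genes tested were called. Between UON and retina 5 of 8 were called (31.7% of all genes), and between MON and retina 4 of 8 (27.6%). All 12 calls were in the direction of UON over MON, or of nerve over retina. With the size factors of DESeq2 in place of TMM the direction of these 12 differences was the same. Within naïve UON the order of levels was Ednrb, Fgfr1, Fgf2, Ece1, Edn3, Ednra, Edn1 and Edn2, with no overlap between neighbours. In naïve MON the order was Ednrb, Fgfr1, Ece1, Fgf2, Edn3, Ednra, Edn1 and Edn2, where Fgf2 overlapped Edn3 and Ednra overlapped Edn1. In naïve retina it was Ece1, Fgfr1, Ednrb, Edn1, Edn2, Fgf2, Ednra and Edn3, where each of the last 4 overlapped its neighbour in the order.

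After injury, Edn2 and Fgf2 were higher in all 10 injured retina libraries than in either naïve pool, and no other of the 8 genes was. The study lists both among genes raised in retina of these samples at the earliest glaucoma time. Their direction there is therefore not independent evidence. In CPM, 511 of 24693 genes tested in retina (2.07%) had all 10 injured libraries above both naïve ones. In UON and MON, where 7 of the 8 genes were tested, none showed that pattern, against 0.761% and 3.36% of all genes, and none had all 10 injured libraries below naïve (0.961% and 3.95%). In retina 1.46% of genes had all 10 below, and none of the 8 did. The naïve level of Fgf2 (17 and 9 counts) was close to the limit of counting. That of Edn2 was so in the male pool (10 counts) but not in the female pool (94 counts), so the naïve pools differed widely. Both points bear on the fold changes of these 2 genes below, and the low naïve counts of Fgf2 also on its differences between tissues above.

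Edn2 in retina was at 6.74 FPKM in the female and 2.04 in the male pool at 3 D after crush, and at 16.9 and 25.3 FPKM at 2 W, compared to 1.28 and 0.147 FPKM in naïve retina. In the glaucoma model it was 10.8 and 6.27 FPKM at 3 D, 22.7 and 7.75 at 2 W, and 12.3 and 5.29 at 6 W. The group means were therefore 0.713 ± 0.802 (naïve), 4.39 ± 3.32 and 21.1 ± 5.92 (crush, 3 D and 2 W), and 8.53 ± 3.20, 15.2 ± 10.6 and 8.81 ± 4.97 FPKM (glaucoma, 3 D, 2 W and 6 W). No injured group overlapped naïve, whereas each injured group overlapped the next in the order of levels. In estimated counts, the 94 and 10 counts of naïve retina stood against 134 to 1589 counts in the injured libraries.

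The log2 fold change of Edn2 over naïve retina was 2.60 at 3 D (SE 0.73) and 5.32 at 2 W after crush (SE 0.82). By edgeR's test the 2 W value missed the threshold (adjusted p = 0.0789, from an unadjusted value of 0.000446), where 0.313% of all genes were called. With each of the 6 libraries left out in turn it ran from 3.97 to 6.82. Each such fit leaves a group with 1 pool, so it cannot test the spread within that group. At 3 D the adjusted p was 0.595. With each of the 6 libraries left out in turn, the 3 D log2 fold change ran from 1.83 to 4.31. In the glaucoma model the log2 fold changes were 3.88 at 3 D (SE 0.50), 4.52 at 2 W (SE 0.50) and 3.79 at 6 W (SE 0.49), with unadjusted p of 6.64e-05, 2.54e-05 and 7.46e-05. After adjustment over all genes these became 0.202, 0.212 and 0.211. In these comparisons 0.00429%, 0.0% and 0.00858% of all genes were called, so that the threshold was passed by almost no gene of the genome. DESeq2 with the model of the study called Edn2 higher at 2 W after crush (adjusted p = 5.85e-05) and at all 3 glaucoma times (4.76e-15, 8.19e-21 and 2.99e-14), where it called 1.55%, 0.76%, 0.449% and 0.517% of genes. It did not call Edn2 at 3 D after crush (adjusted p = 0.419, 0.649% of genes called).

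Fgf2 in retina was at 2.04 and 1.31 FPKM at 3 D and 2.92 and 1.89 FPKM at 2 W after crush, compared to 0.357 and 0.603 FPKM in naïve retina. In the glaucoma model it was 3.73 and 1.24 FPKM at 3 D, 6.77 and 2.65 at 2 W, and 3.01 and 1.47 at 6 W. The lowest injured level was thus 1.24 FPKM, above the 0.603 FPKM of the higher naïve pool. The counts were less even: naïve retina had 17 and 9 counts, and the injured libraries had 107 and 34, 764 and 141, 229 and 316, 1298 and 464, and 552 and 17 counts in the same order. The male pool of glaucoma at 6 W thus had no more counts than the female naïve pool.

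Fgf2 at 2 W after crush was the only one of 44 comparisons of the 8 genes between crush and naïve that was called (1.15% of all such tests were). Its log2 fold change was 4.60 (SE 0.47, adjusted p = 0.0221 by edgeR's test). The call was lost without the female pool of that group (4.33, adjusted p = 0.0717), without the sex term and in the fit of all 36 libraries, while the direction held throughout. At 3 D after crush the value was 2.48 (SE 0.45, adjusted p = 0.295). In the glaucoma model the log2 fold changes were 5.01 at 3 D (SE 0.96, adjusted p = 0.464), 6.14 at 2 W (SE 0.99, adjusted p = 0.362) and 4.01 at 6 W (SE 0.97, adjusted p = 0.703). These tests turned on the 6 W pools. Without the male 6 W pool the 3 times gave adjusted p of 0.0127, 0.00426 and 0.0126. Without the female 6 W pool they gave 0.0141 and 0.00487 at 3 D and 2 W, while the 6 W value was 1.61 (adjusted p = 1.0). That female pool is the retina library with 44.2 FPKM of surface epithelium and lens genes, and the part of these cells in its Fgf2 level was not tested. Edn2 at 6 W differed little without it (4.00, adjusted p = 0.0868). DESeq2 called Fgf2 higher at both crush times (adjusted p = 0.00442 and 9.57e-13) and in glaucoma at 3 D and 2 W (0.0046 and 0.000139), but not at 6 W (0.1).

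**Figure D2:**
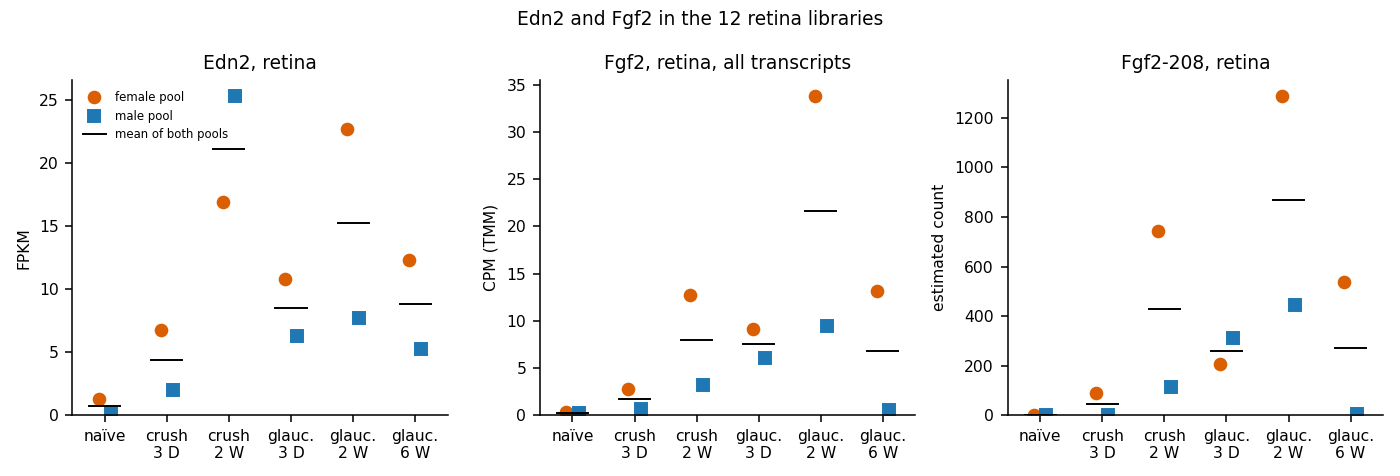
Edn2 (FPKM), Fgf2 (CPM) and the long Fgf2 transcript Fgf2-208 (estimated counts) in the 12 retina libraries, by group. Circles are female pools, squares male pools and lines the mean of both. For Edn2 and Fgf2 every injured library lay above both naïve libraries, and Fgf2-208 was at 0 in both naïve pools and in the male pool at 3 D after crush.

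The mean of all 5 injury groups was also set against naïve retina in a fit of the 12 retina libraries, a comparison chosen after the values had been seen. The log2 difference was 3.97 for Edn2 (SE 0.59, adjusted p = 0.115) and 4.46 for Fgf2 (SE 0.77, adjusted p = 0.17), and edgeR called 0.0081% of genes here. DESeq2 called both (adjusted p = 2.59e-17 and 1e-11, 0.665% of genes called). With 1 library left out, the edgeR log2 difference ran from 3.33 to 5.38 for Edn2 and from 3.67 to 5.05 for Fgf2.

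Other markers moved with the same groups. The summed FPKM of 6 microglia genes was 20.9 to 22.3 in naïve retina, 29.9 to 39.5 after crush and 25.9 to 47.0 in glaucoma, with no gene of the list at 0. That of 8 RGC genes was 506 to 563 in naïve retina, 64.4 to 318 after crush and 255 to 471 in glaucoma, again with none at 0. The sum of 7 genes of Müller glia, the radial glia of the retina, overlapped between groups (968 to 1000 in naïve retina, 859 to 1010 after crush, 879 to 1120 in glaucoma), as did that of the 10 photoreceptor genes. The sum of 6 endothelium genes was 34.7 and 35.2 in naïve retina and 35.5 to 53.8 in the 10 injured libraries, all above naïve and none with a gene at 0. That of 6 astrocyte genes was 68.8 and 72.7 in naïve retina, 78 to 116 after crush and 68.4 to 118 in glaucoma, with at most 1 gene at 0. The part of these cell types in the levels of Edn2 and Fgf2 was not tested.

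The female and male pools differed in retina. Edn2 was higher in the female pool in 5 of 6 groups, with 2 W after crush as the exception, and Fgf2 in 5 of 6 groups by FPKM, with naïve as the exception. Over all 12 retina libraries the log2 difference of male minus female pools was -1.17 for Edn2 (SE 0.34, edgeR adjusted p = 1.0, DESeq2 adjusted p = 0.0296) and -1.93 for Fgf2 (SE 0.43, adjusted p = 0.968, DESeq2 adjusted p = 0.000169). In this comparison, also added after the values had been seen, edgeR called 0.0324% and DESeq2 0.0763% of genes. With 1 pool of each sex in a group, sex and pool cannot be told apart.

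The transcript table shows what the Fgf2 values rest on. The long transcript Fgf2-208 (5973 bases, protein coding) carried 99.7% of the Fgf2 counts in UON, 99.5% in MON and 94.9% in retina. In retina it was at 0 in both naïve pools. After crush it had 91 and 0 counts at 3 D and 744 and 114 at 2 W, and in glaucoma 209 and 312 at 3 D, 1287 and 446 at 2 W, and 539 and 5 at 6 W. Fgf2-208 was therefore counted in 9 of the 12 retina libraries, all of them injured, and in 1 of those with 5 counts, under the limit that a count of 0 allows. Other protein-coding transcripts had few counts in retina. Fgf2-204 had 15 in the female naïve pool and 23 in the male pool at 3 D after crush, and Fgf2-202 had 4 and 21 at 2 W after crush.

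A short annotated transcript weighs on the FPKM. Fgf2-207, a retained intron of 257 bases, had only 1 to 16 counts in retina, but per length it made up 3.12 to 98.2% of the Fgf2 signal there, against 0.394 to 67.5% in UON and 1.98 to 45.2% in MON. It made up 98.2% in the male retina pool of glaucoma at 6 W, 80.3% and 69.8% at 3 D after crush, and 39.1% and 74.7% in naïve retina. In those libraries the FPKM of Fgf2 thus came largely from a stretch other than Fgf2-208, which held 0% per length in naïve retina. In UON, Fgf2-208 had 17 counts in the female pool of glaucoma at 3 D and 12 in the male pool at 2 W, against 1459 to 6628 in the other 10 libraries. These are the shallowest UON libraries (19.5 and 16.2 M counts). The MON libraries, with 16.3 to 78.1 M counts, held at least 347. The UON pair also stands apart by markers. The first had the highest oligodendrocyte sum of UON (17700 FPKM), and the second the highest photoreceptor sum of the nerve libraries (101) and 23.1 FPKM of surface epithelium and lens genes. The part of depth and of these other cells in the Fgf2-208 counts was not tested.

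**Figure D3:**
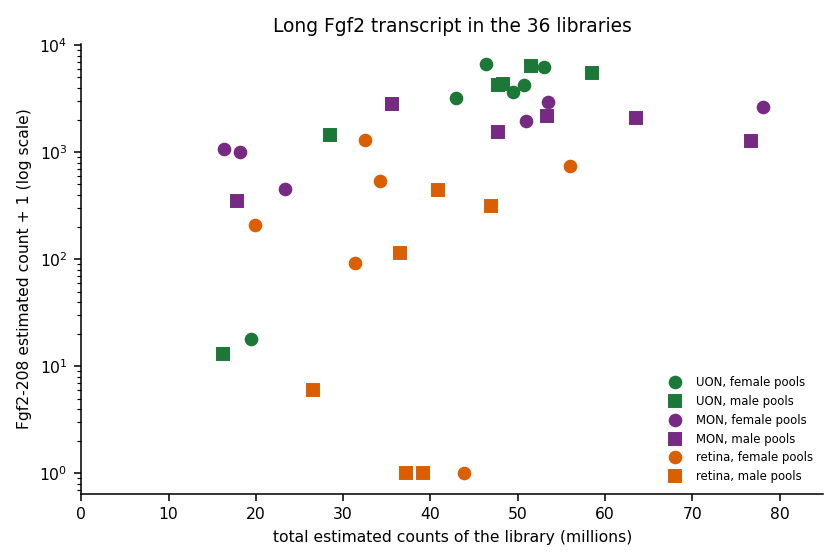
Estimated counts of Fgf2-208 plus 1 (log axis) against the total estimated counts of each of the 36 libraries (M). Circles are female and squares male pools, coloured by tissue. UON and MON libraries lay between 347 and 6628 counts apart from the 2 UON libraries at 12 and 17, and the retina libraries ran from 0 to 1287.

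A pair of neighbours overlaps Fgf2 on the other strand. Nudt6 (ENSMUSG00000050174, chr3:37404910-37420211, minus strand), known as an antisense gene to FGF2, was at 5.90 and 5.30 FPKM in naïve retina and 3.59 to 11.1 after injury, with log2 changes between -0.43 and 0.19 and no call by either tool. Fgf2os (ENSMUSG00000054779, chr3:37335332-37349740, minus strand), a noncoding transcript over the start of Fgf2, was at 1.19 and 0.676 FPKM in naïve retina and 1.76 to 5.18 in all injured libraries. Its log2 changes were 2.05 at 2 W after crush (edgeR adjusted p = 0.0934, DESeq2 adjusted p = 0.0018), 1.96 in glaucoma at 2 W (0.449 and 0.00443) and 1.72 at 6 W (0.634 and 0.0258). Whether counting used the strand is not given in the sources used here, and without it reads of Fgf2 and of these partners cannot be told apart where they overlap.

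The 6 other genes showed no call against naïve in any tissue by edgeR's test. In retina, Fgfr1 was at 4.28 and 3.22 FPKM in naïve pools and 3.90 to 6.08 after injury, with 9 of 10 injured libraries above both naïve pools. Ednrb was at 1.90 and 2.05 in naïve pools and 1.63 to 3.68 after injury, with the highest pair in glaucoma at 3 D (3.66 and 3.68). The Ednrb change there was 0.78 on the log2 scale (SE 0.27, adjusted p = 0.74). Edn1 ranged from 0.815 to 2.14 FPKM in retina, Ednra from 0.136 to 0.588 and Edn3 from 0.0808 to 0.523, each with both naïve values inside the injured range. Ednra was lowest at 2 W after crush, at 0.163 and 0.136 FPKM, compared to 0.296 and 0.457 in naïve retina. Of the 10 injured retina libraries, 7 were below both naïve pools in Ednra and 1 above both. Ece1 was at 7.52 to 11.9 FPKM in the injured retina libraries, around the 9.86 of the female naïve pool and below the 12.4 of the male one.

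In MON, the largest log2 differences of these genes from naïve were those of Edn1 and Edn3 after crush. Edn3 was at 0.503 and 0.0857 FPKM at 3 D and 2.41 and 2.63 at 2 W, compared to 3.71 and 1.57 in naïve MON. The pools at 3 D and the naïve pools did not overlap (log2 fold change -3.04, SE 0.73, adjusted p = 0.066 by edgeR and 0.000328 by DESeq2, where 4.26% of genes were called by edgeR). Edn1 was at 0 and 0.232 FPKM at 2 W, compared to 0.912 and 0.678 in naïve MON (-3.41, SE 1.32, adjusted p = 0.26 and 0.0342, 2.72% of genes called by edgeR). These were 0 and 20 counts against 173 and 30 in naïve MON. The library at 0 was the shallowest of MON (16.3 M counts), and a count of 0 allows up to 12 counts, so the size of this change is uncertain. Edn1 was called without the male pool of 2 W (adjusted p = 0.0155), which left only the library at 0. Ednra was at 3.13 and 2.44 FPKM at 2 W, compared to 1.38 and 0.482 in naïve MON, and did not pass the test (1.55, SE 0.49, adjusted p = 0.166). With 1 library left out, the log2 fold change of Edn3 at 3 D ran from -3.93 to -2.33.

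Fgf2 in MON was at 9.08 and 6.54 FPKM at 3 D and 10.6 and 12.7 at 2 W after crush, above 5.21 and 3.27 in naïve MON. The 2 W change was 1.42 on the log2 scale (SE 0.35), with an adjusted p of 0.0855 by edgeR and 0.00537 by DESeq2. With 1 library left out, it ran from 0.89 to 1.94 by edgeR. Ednrb was at 104 and 38.2 FPKM at 3 D and 161 and 268 at 2 W, so that 2 W lay above 3 D by 1.69 (SE 0.56, adjusted p = 0.279 and 0.00476), as did Edn3 by 3.53 (SE 0.77, adjusted p = 0.132 and 5.71e-05). In the same libraries the sum of 6 oligodendrocyte genes was 19900 to 35300 FPKM against 47800 to 55800 in naïve MON, and that of 6 microglia genes 1000 to 1830 against 345 to 349, none at 0. The sum of 6 astrocyte genes was 3940 and 2030 FPKM at 3 D and 3980 and 6280 at 2 W, against 3850 and 3040 in naïve MON, and like Ednrb it was lowest in the male pool of 3 D and highest in the male pool of 2 W. The sum of 6 pericyte and smooth muscle genes was 87.8 to 107 after crush against 25.3 and 41.8 in naïve MON, with at most 1 gene at 0. The sum of 6 endothelium genes was 59.3 and 73.2 at 3 D and 15.8 and 35.6 at 2 W, against 28.7 and 31.5, and its 15.8 belonged to the library with Edn1 at 0. The part of these cells in the values above was not tested.

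In UON none of these genes was called after injury, and at 2 W after crush 0.0281% of all genes were. Ednrb ranged from 329 to 588 FPKM in the 12 libraries. Of the 10 injured ones, 6 were below both naïve pools (588 and 526 FPKM) and 0 above both. Fgfr1 was at 78.3 and 58.5 FPKM at 2 W after crush, compared to 150 and 142 in naïve UON (-1.21, SE 0.33, adjusted p = 0.48), and 9 of 10 injured libraries were below both naïve pools. Ece1 at 2 W after crush was 4.42 and 5.17 FPKM against 6.97 and 8.83 (-0.91, SE 0.31, adjusted p = 0.496). In the same pools the sum of 3 blood genes was 3590 and 2490 FPKM against 164 and 361 in naïve UON. That of the 7 genes listed for Müller glia was 1390 and 1340 against 1990 and 1950, with no gene of either list at 0. This list does not mark Müller glia in nerve, since its sum was lower in naïve retina (968 to 1000) than in naïve UON. The sum of the 6 astrocyte genes overlapped naïve UON, with 4930 and 4620 against 4800 and 5530. The sum of the 8 RGC genes was 25.9 and 18.7 against 50.9 and 63.3, with at most 2 at 0. The part of the cells behind these sums in the values of Fgfr1 and Ece1 was not tested. Edn3 varied widely among the injured UON libraries, from 0.499 FPKM in the male pool at 3 D after crush to 6.81 in the male pool at 2 W, the library with the low oligodendrocyte sum. Fgf2 ranged from 2.59 to 21.3 FPKM around naïve levels of 11.2 and 13.1, and its lowest values, 2.59 and 3.95, were the 2 libraries with 17 and 12 counts of the long transcript.

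**Figure D4:**
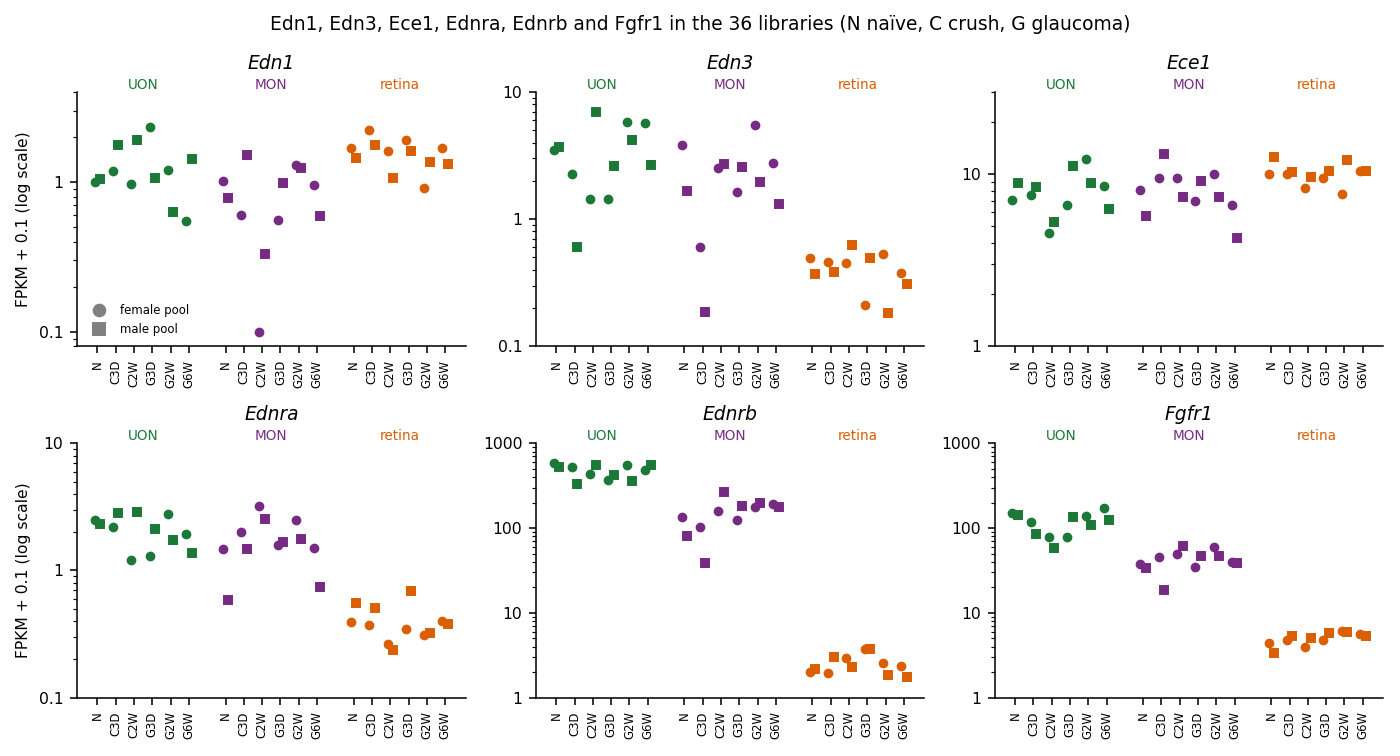
FPKM plus 0.1 (log axes) of Edn1, Edn3, Ece1, Ednra, Ednrb and Fgfr1 in all 36 libraries, by tissue and group. Circles are female and squares male pools. Ednrb lies at 329 to 588 FPKM in UON, 38.2 to 268 in MON and 1.63 to 3.68 in retina, the ranges of Fgfr1 in UON and MON meet (58.5 to 172 and 18.4 to 61.5), and Ece1 lies between 4.17 and 13.0 FPKM in all libraries.

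**Figure D5:**
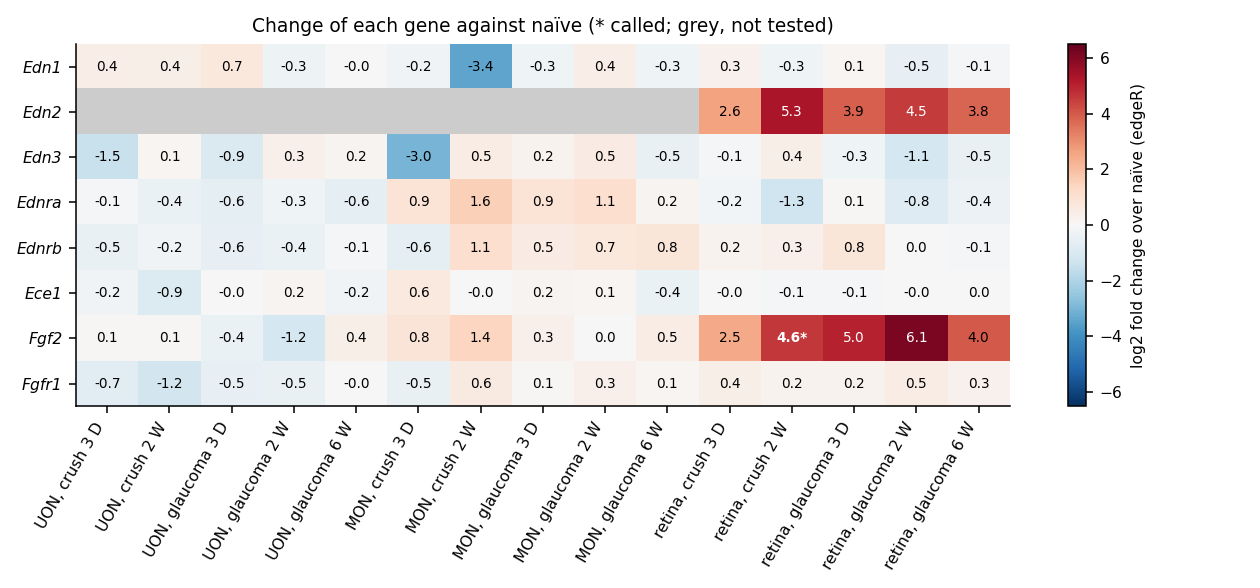
Log2 fold change of each gene over naïve in the 15 injury comparisons, by edgeR. Grey marks Edn2 in UON and MON, which did not pass the filter on low counts. The row of Edn2 runs from 2.60 to 5.32 and that of Fgf2 from 2.48 to 6.14 in retina, and the asterisk marks the 1 call, Fgf2 at 2 W after crush.

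Over the whole set of comparisons, few calls were made. Glaucoma against naïve gave 0 calls in 66 comparisons of these genes by edgeR, where 0.00146% of all such tests were called, with 8 at an unadjusted p under 0.05, and 5 calls by DESeq2 (0.804% of tests called). Later times against 3 D gave 0 of 66 by edgeR (0.0154%), with 9 at an unadjusted p under 0.05, and 3 by DESeq2 (1.36%), which were Edn3 and Ednrb in MON and Fgf2 in retina at 2 W against 3 D after crush (2.12, SE 0.40, edgeR adjusted p = 0.223). DESeq2 made 6 calls among the 44 crush comparisons (4.24%), where edgeR had 12 at an unadjusted p under 0.05.

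Crush and glaucoma were compared directly at 3 D and 2 W. Of 44 comparisons edgeR called 0 (0.0382% of all tests), with 7 at an unadjusted p under 0.05, and DESeq2 called 3 (1.37%). In retina, Fgf2 differed at 3 D by -2.50 on the log2 scale, crush minus glaucoma (SE 0.70, adjusted p = 1.0 by edgeR and 0.0293 by DESeq2). The other DESeq2 calls lay in MON, where Edn3 at 3 D (-3.35, SE 0.83) and Edn1 at 2 W (-3.41, SE 1.10) were lower after crush, with edgeR adjusted p of 0.349 and 0.463.

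Whether the response differed between tissues was tested by an interaction term. The same mice gave all tissues, but the model held only group and sex. Libraries of the same mice were thus treated as independent here. None of 115 tests was called by edgeR (0.104% of all tests), with 20 at an unadjusted p under 0.05, and 7 were called by DESeq2 (1.56%). Among these, 4 were Fgf2. Its change at 2 W after crush gave a difference of -4.57 for UON minus retina (SE 0.88, edgeR adjusted p = 0.17, DESeq2 adjusted p = 0.000167) and of -3.19 for MON minus retina (SE 0.76, adjusted p = 0.104 and 0.00246). Its change in glaucoma gave -4.56 for MON minus retina at 3 D (SE 1.28, adjusted p = 0.693 and 0.0226) and -5.94 at 2 W (SE 1.31, adjusted p = 0.429 and 0.000256). The other 3 were Fgfr1 in UON against retina at 2 W after crush (-1.43, SE 0.36, 0.337 and 0.0343), Ednrb in UON against retina in glaucoma at 3 D (-1.33, SE 0.36, 0.787 and 0.0493), and Ednra in MON against retina at 2 W after crush (2.74, SE 0.81, 0.184 and 0.0184). Edn2, whose nerve libraries are at or near 0, could be tested for such a difference only where it passed the filter.

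The genes around the 8 were read from lists of the 2 pathways. Of 17 other genes of endothelin processing and signaling, 16 were tested. Between naïve UON and MON 3 were higher and 2 lower in UON, between UON and retina 10 were higher and 3 lower, and between MON and retina 8 were higher and 2 lower, with median log2 differences of 0.13, 1.11 and 0.99 beside -0.06, -0.17 and 0.00 over all genes. Ecel1, a neuronal protease related to Ece1 that is known to be induced in damaged neurons, was the most regional, at 17.1 and 18.7 FPKM in naïve UON against 0.313 and 0 in MON (6.45, SE 0.93, adjusted p = 0.00698). It also gave the only calls of this list after injury. In retina Ecel1 was at 0.158 and 0.853 FPKM in naïve pools, 14.6 and 28.1 at 3 D after crush (6.52, SE 0.34, adjusted p = 0.0115) and 10.1 and 9.45 at 2 W (5.57, SE 0.33, adjusted p = 0.00381). In glaucoma it was 20.8 FPKM in the female but 0.577 in the male pool at 3 D, and not above 1.90 later.

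Among the G protein subunits and lipases through which the endothelin receptors act, Gna12 was lower in UON than in MON (-1.80, adjusted p = 0.0039) and higher than in retina by 2.51 in UON (adjusted p = 0.000182) and 4.31 in MON (adjusted p = 3.87e-05). Plcb3 was higher than in retina by 4.03 in UON (adjusted p = 6.01e-05) and by 2.81 in MON (adjusted p = 0.000255), and Plcb4 was lower than in retina in both (-2.04 and -2.64, adjusted p = 0.000921 and 0.000351).

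Of 21 other FGF ligand genes 13 were tested among the naïve tissues. Between UON and MON 1 was higher and 1 lower in UON, between UON and retina 1 was higher and 4 lower, and between MON and retina 2 were higher and 5 lower (medians -0.47, -1.59 and -1.66). Over all genes 9.63%, 31.7% and 27.6% were called in these comparisons. Fgf1, called in the same direction as Fgf2, was higher than in retina by 1.31 in UON (adjusted p = 0.00343) and 2.18 in MON (adjusted p = 0.000413). Fgf9 was at 23.4 and 23.8 FPKM in naïve retina against 0.954 and 0.405 in UON (-6.11, SE 0.68, adjusted p = 0.00047). Fgf1, the acidic counterpart of Fgf2, was at 10.9 and 9.16 FPKM in naïve retina and fell to 4.00 and 2.95 at 2 W after crush (log2 fold change -1.63, SE 0.18, adjusted p = 0.0277). It was the only ligand gene of this list that edgeR called in retina after injury, in the direction opposite to that of Fgf2. Fgf13, an intracellular FGF-like protein of neurons, was called in MON at 2 W after crush, at 10.5 and 5.25 FPKM against 0.848 and 0.341 (2.60, SE 0.52, adjusted p = 0.0485).

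Of 13 other receptors and coreceptors, all tested, 3 were higher in UON than in MON, 10 higher in UON than in retina and 8 higher in MON than in retina, and none was lower (medians 1.08, 2.92 and 2.35). Fgfr2 was at 52.9 and 52.7 FPKM in UON, 63.2 and 42.7 in MON and 0.170 and 0.654 in retina (7.17 and 7.15 over retina, adjusted p = 0.000103 and 0.000128). Fgfr3 was at 21.3 and 22.0 FPKM in UON, 18.7 and 15.8 in MON and 0.157 and 0.057 in retina (7.89 and 7.63 over retina, adjusted p = 2.93e-05 and 3.6e-05). Fgfr4 and Fgfrl1 were lower in level but also higher in nerve, by 4.43 and 3.63 and by 5.06 and 3.75. The calls between UON and MON were the syndecans Sdc1, Sdc2 and Sdc3, heparan sulfate carriers of the cell surface (1.61, 1.78 and 2.08, adjusted p = 0.0208, 0.00689 and 0.00243), whereas Fgfr1 was the only FGF receptor called between them. After injury the list gave 1 call, Sdc1 at 3 D after crush in MON (1.98, SE 0.39, adjusted p = 0.0365).

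Of 18 adaptor and kinase genes downstream of the receptors, 1 was higher and 2 were lower in UON than in MON, 9 were higher in UON than in retina, 9 higher in MON than in retina and none lower (medians 0.99 and 1.07). Shc1 and Gab1 were higher than in retina by 3.19 and 3.30 in UON and by 1.53 and 3.72 in MON. Plcg1 was lower in MON at 3 D after crush (-1.59, SE 0.30, adjusted p = 0.0334). Of 14 feedback and target genes of FGF signaling, 1 was higher and 1 lower in UON than in MON, 5 were higher and 2 lower in UON than in retina, and 2 higher and 3 lower in MON than in retina, with medians of 0.94 and 0.26. Etv1 was higher in both (2.89 and 4.31), and Spry3 lower in both (-3.46 and -2.81). Dusp6, a phosphatase that ERK signaling induces, was at 21.7 and 33.0 FPKM at 3 D after crush in MON against 5.48 and 7.35 in naïve MON (2.21, SE 0.37, adjusted p = 0.0227), the only call of this list after injury. In retina none of the 14 was called after injury by either tool, and their medians lay between -0.39 and 0.07. In these retina comparisons edgeR called at most 0.313% and DESeq2 at most 1.55% of all genes. A count of 0 among 14 is near those shares and says little about FGF signaling.

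A list of 11 genes of the cytokine and glial stress response was followed as well. Of these, 1 was higher in UON than in MON and 10 were higher in each nerve tissue than in retina (medians 0.41, 4.17 and 3.39). The study names part of them from these samples, so their direction is not independent evidence. After crush, calls were made in MON (Socs3 2.99 and 1.83 at 3 D and 2 W, Lif 4.67 and 3.26, Osmr 2.34 at 2 W) and in retina at 2 W (Serpina3n 3.24, adjusted p = 0.0349, and Cebpd 1.34, adjusted p = 0.0441). In glaucoma edgeR called 0 of 99 tests of this list. DESeq2 called 21, of which 9, 6 and 1 lay in retina at 3 D, 2 W and 6 W, and the medians in retina were 1.54, 1.14 and 0.70. Over the other 5 lists edgeR called 0 genes against naïve in glaucoma, and DESeq2 called 5.

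The 250 bases before the RefSeq starts of Edn2 and Fgf2 were searched for 7 motifs on both strands, since both genes were higher in all injured retina libraries. The motifs were TTCNNNGAA (STAT factors), the same STAT motif with a spacer longer by 1 base, TGANTCA (the AP-1 motif) and ACGTG, which is the core of the HIF motif. The E-box CACGTG contains that core, and the others were the GC box GGGCGG and the TATA box motif TATAAA. The sequence before Edn2 is taken from the RefSeq table on GRCm38.p6.
Edn2 (chr4:120160956-120161205, plus strand): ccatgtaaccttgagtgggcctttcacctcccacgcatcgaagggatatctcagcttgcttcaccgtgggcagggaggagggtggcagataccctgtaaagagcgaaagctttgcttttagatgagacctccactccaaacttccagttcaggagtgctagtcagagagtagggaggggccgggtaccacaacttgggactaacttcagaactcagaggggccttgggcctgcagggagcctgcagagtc
No base is in capitals because none of the 7 motifs was found. The RefSeq start of Fgf2 lies inside the gene as the authors' tables bound it (from chr3:37348346). The whole window before that start (chr3:37348403-37348652, plus strand) therefore lies within the annotated gene and not upstream of it. In it 1 motif was found, GGGCGG on the plus strand 49 to 44 bases before the RefSeq start. Among 32851 windows of the same length before RefSeq genes, 7.02% held TTCNNNGAA, 5.85% its longer form, 6.75% the AP-1 motif, 16.6% the HIF core, 6.02% the E-box, 32.7% the GC box and 12.4% the TATA box motif. GC content was 55.6% in the window of Edn2 and 62.4% in that of Fgf2, against a median of 52.4%. The absence of a motif says only that these letters are not in this window.

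Genes whose level followed each of the 8 most closely were read from log2 CPM over the 12 libraries of the tissue where the gene is highest, and for Fgf2 also in retina, among 13577 candidates in UON and 13673 in retina, with no test. The 12 libraries share tissue, groups and pools. For Edn2 in retina the 3 genes of highest Pearson r were Fgf2os (0.92), Irf8 (0.92) and Pbxip1 (0.92), and for Fgf2 in retina Casp8 (0.90), Gbp2 (0.90) and Tnnt2 (0.88). By Spearman's rho the closest genes in retina were Gnb3, Agtpbp1 and Arhgef2 for Edn2 (0.97, 0.97 and 0.94), with none of the 3 above, and Casp8, Tnnt2 and Zfp280d for Fgf2 (0.94, 0.92 and 0.92). For Ednrb in UON they were Lgalsl (0.97), Gpm6a (0.95) and Acbd5 (0.94), and for Fgfr1 in UON Rab5b (0.98), Cyb5b (0.97) and Nadk (0.97). For Fgf2 in UON they were Slc31a1, Pgm3 and Tbk1 (0.95, 0.95 and 0.94), for Edn3 in UON Trmt2a, Zmym2 and Mios (0.92, 0.91 and 0.91), and for Ednra in UON Zc3hav1l, Msl3 and Rsl1 (0.91, 0.89 and 0.89). In retina, Edn1 was closest to Pex5, Ccdc22 and Mmut (0.91, 0.90 and 0.89), and Ece1 to Ptk2, Atp13a2 and Usp19 (0.93, 0.92 and 0.88).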

How the data were processed

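The authors aligned paired reads of 150 bases to GRCm38 with HISAT2 2.2.1 after FastQC and assembled them with StringTie 1.3.0 on the Gencode annotation. The estimated counts deposited for genes and for transcripts are the authors' expected counts, made from coverage and transcript length without normalization, at 75.0 bases per count (Edn2). The deposited FPKM, TPM and coverage (mean read depth) per gene are also the authors' StringTie values for each pool. A few FPKM values of some libraries lie just below 0 and were set to 0.

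Counts were tested as whole numbers with edgeR 4.0.16 (R 4.3.3), after TMM scaling and a filter on low counts by filterByExpr (minimum count 10, minimum total 15), using the quasi-likelihood F test and Benjamini-Hochberg adjustment over all genes tested. Models held group (or tissue) and sex, per tissue and treatment as in the study, and the same-sex pools of 3 naïve tissues came from the same mice. A call needed adjusted p < 0.05 together with a log2 difference above 1 in size. DESeq2 1.42.0 was an alternative. All 53 annotated transcripts of the 8 genes and their antisense partners were in the table. The windows before genes came from RefSeq, and the peptide coding bases from Gencode transcripts on GRCm38. Transcript names, types and lengths were from the same Gencode release, which is earlier than the one the study used. The scripts were tested on simulated counts. Where a left-out library leaves a group with 1 pool, that pool is assumed to vary like the other groups. With n = 2 pools, p-values measure the spread between pools of 2 mice only. The genes, lists and tests were chosen with earlier results of these data known. Named genes were the 8 genes, up to 4 called genes per list and tissue by size of change, the other FGF receptors, and 3 genes by likeness. Total counts per library, given in the report, set the precision. Settings compared were the normalization, the filter on low counts, the sex term, the libraries in the fit, the fold limit, the count model and each library left out.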

Additional observations from a re-analysis of the deposited data

How the results depend on the processing

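Of 12 calls among the naïve tissues, all 6 settings kept the count within 1.5 times, and leaving out 1 library gave 11 to 13. The 1 call after crush against naïve became 6 with DESeq2, 4 with no filter on low counts, 0 without the sex term and 0 in the fit of all 36 libraries, and 1 to 4 when 1 library was left out. For later times against 3 D the 0 calls became 3 with DESeq2 and 2 with no filter, for glaucoma against naïve 5 and 4, for crush against glaucoma 3 and 1, and for differences in response between tissues 7 and 2. The mean of injury groups against naïve and male against female pools had 0 calls, and 2 and 2 with DESeq2 and 2 and 1 with no filter. Leaving out 1 library gave 0 to 3, 0 to 4, 0 to 1 and 0 to 1 for these, 0 to 2 for the mean of injury groups and 0 for male against female pools. The 133 calls of the pathway lists became 204 with DESeq2, and 128 to 154 with 1 library left out. The causes of these shifts were not tested. The sex term is also the pairing of pools from the same mice only in the comparisons among naïve tissues. Without the sex term the crush call was lost and no other count of calls changed by more than 1.5 times. No value changed its direction under any setting tried. Of the 27 genes of highest Pearson r, 9 were also named by Spearman's rho.

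Depth and pool number limit these results. In naïve retina, Fgf2 rested on 17 and 9 counts, so its fold changes depend on a few read pairs. Edn2 in nerve lay at or under the limit that 0 counts allow in 23 of 24 libraries.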
